A study of Mus musculus with 4 samples.

Results

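The genes described here are 10 immediate early genes that cell dissociation is known to switch on, out of 53715 genes in a count table from mouse primordial germ cells. They were found by matching the table's Ensembl identifiers to the symbols Fos, Fosb, Fosl2, Jun, Junb, Jund, Egr1, Atf3, Ier2 and Dusp1, and all 10 matched. All 10 also passed the filter on low counts that left 15466 genes for testing. The cells came from E12.5 embryos of C57BL/6 background and were taken by magnetic sorting (MACS). Each library was made from 1000 of them by a modified Smart-seq2, which copies whole transcripts of few cells into cDNA, and cut with Tn5 transposase. There were 2 libraries labelled WT, of wild-type genotype, and 2 labelled Rif1_KO, from a knockout of Rif1, which encodes a chromatin protein of replication timing and break repair. The sorting marker, the deleted part of Rif1, the way the tissue was dissociated and whether the libraries of a label came from separate embryos were not given in the sources used here. Any p-value is thus set by how far these libraries differ within a label, and that difference may be technical.

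Immediate early genes are transcribed within minutes of a stimulus, without new protein synthesis, because kinases of the ERK, JNK and p38 pathways act on transcription factors already bound at their promoters. Their transcripts are short-lived, so their level reflects the last minutes to hours of a cell's history, and enzymatic digestion and sorting of tissue are known to raise them. Fos and Jun family proteins pair through their leucine zippers into AP-1, which binds DNA as a dimer. Fos proteins need a Jun partner, whereas Jun proteins can also pair with each other. Egr1 is a zinc finger transcription factor, Atf3 a stress-induced bZIP factor, Ier2 a small nuclear protein, and Dusp1 a phosphatase that switches off the kinases that induce these genes.

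Total counts ranged from 11724630 to 14421298 per library, and 13314 to 16211 genes had at least 10 counts. Rif1 itself was higher in the Rif1_KO-labelled pair, with 86.2 and 63.9 CPM, than in the WT-labelled pair, with 43.7 and 4.73 CPM. Values are given for replicate 1 first and replicate 2 second throughout. The log2 fold change of Rif1 was 1.63 (SE 1.01, edgeR adjusted p = 0.717), and WT replicate 2 had 44 counts. Since the deleted part was not given, these counts neither bear out the labels nor show them wrong, and libraries are named by label throughout. CPM are counts per 1000000 of the library total after TMM scaling, edgeR's correction for library composition. The summed level of 14 germ cell markers was highest in 1 library, WT replicate 2. It was 57.7 and 460 CPM in the WT-labelled pair and 40.2 and 37.7 CPM in the Rif1_KO-labelled pair. Dazl gave 196 and Dppa3 165 of the 460 CPM. Prdm14 followed another order, with 19.9 and 18.4 CPM in the WT-labelled pair against 0.452 and 0.106 CPM. Of the 14 markers, 5 and 8 had at least 10 counts in the WT-labelled pair and 7 and 10 in the Rif1_KO-labelled pair, and none was at 0 in all libraries. In such bulk samples fewer cells of a type and less RNA per cell cannot be told apart.

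As a measure of handling, the summed level of the 10 genes did not separate the labels. The sum was 239 and 390 CPM in the WT-labelled pair and 191 and 274 CPM in the Rif1_KO-labelled pair, so the ranges overlapped. As shares of all counts, the 10 genes made up 0.0203% (0.0195 to 0.0211, exact 95% Clopper-Pearson interval) and 0.0309% (0.0299 to 0.0319) in the WT-labelled pair. The shares were 0.0210% (0.0202 to 0.0218) and 0.0359% (0.0349 to 0.0369) in the Rif1_KO-labelled pair. These intervals cover the counting error of reads within each library only, not the spread between libraries. The reads carry no molecular identifiers, so copies of a molecule are counted as separate reads. Which label had the higher mean depended on the scale. It was 314 ± 107 CPM for WT and 232 ± 58.7 CPM for Rif1_KO (SD, n = 2 each), but 0.0256% ± 0.00749 and 0.0285% ± 0.0105 as shares of deposited counts. Dusp1 alone made up 36.6% and 59.2% of the summed CPM in the WT-labelled pair and 14.7% and 21.0% in the Rif1_KO-labelled pair. Without Dusp1, left out after its values were seen, the sums were 151 and 159 CPM against 163 and 217 CPM, and nothing is read from their order, since Dusp1 is the gene that weighed most on the WT side.

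The genes inside this sum lay on different sides of the labels. Fos, Fosb and Egr1 were higher in both libraries labelled Rif1_KO than in either labelled WT, Jun, Ier2 and Dusp1 were lower in both, and Fosl2, Junb, Jund and Atf3 overlapped. That is 3 of 10 genes higher and 3 of 10 lower without overlap, 6 in all, while 21.0% of all tested genes were higher and 18.4% lower without overlap, 39.4% in either direction. Scaled to deposited totals, Fos, Fosb and Egr1 stayed higher and Jun lower, but Ier2 and Dusp1 overlapped; on that scale 34.4% of all tested genes were higher and 9.07% lower. None of the 10 genes passed edgeR's quasi-likelihood test at a Benjamini-Hochberg adjusted p under 0.05, which called 0.0129% of all tested genes. At an unadjusted p under 0.05, 1 of the 10 was lower (Dusp1) and 0 were higher, with 3.05% of all tested genes lower and 5.35% higher, 8.41% in all. DESeq2 and limma-voom also called 0 of the 10, against 3.37% and 0.0129% of all tested genes. The median log2 fold change of the 10 genes was 0.06, and that of all tested genes was -0.11.

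**Figure D1:**
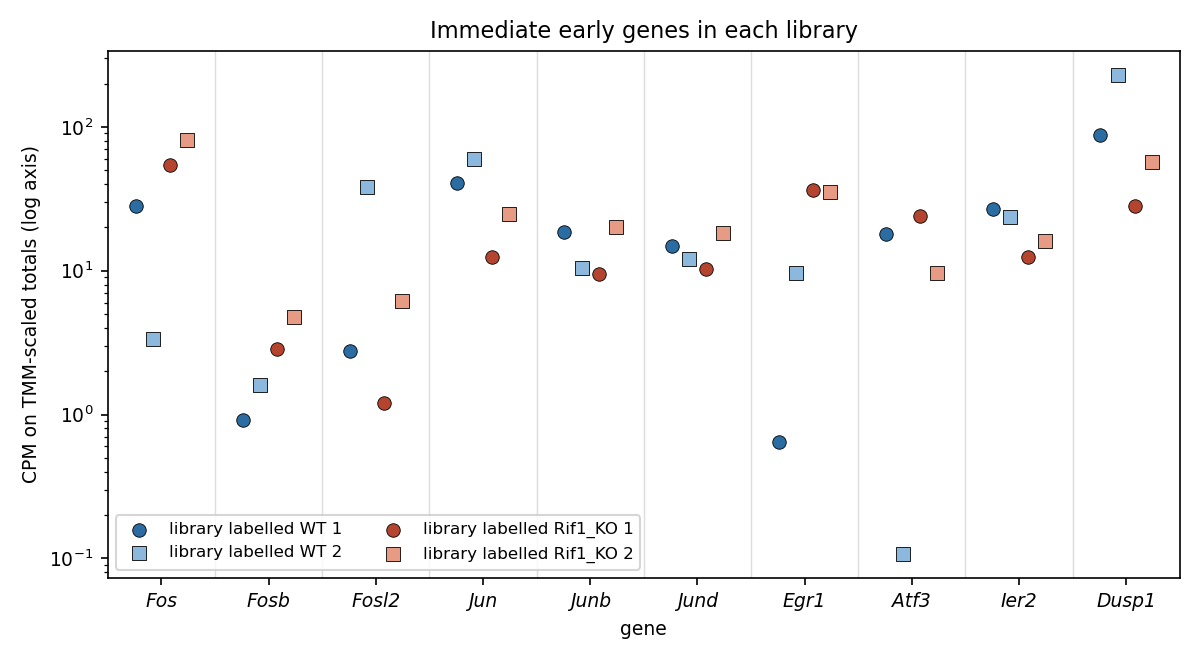
Level of each immediate early gene in each library, in CPM on a log axis, with 1 point per library (blue for the label WT, red for the label Rif1_KO, circles for replicate 1 and squares for replicate 2). Fos, Fosb and Egr1 have both red points above both blue points, Jun, Ier2 and Dusp1 have them below, and Atf3 has a lone point at 0.107 CPM in WT replicate 2.

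In the Fos family, Fos (ENSMUSG00000021250.13, mm10 chromosome 12, 85473890 to 85477273) was higher in the Rif1_KO-labelled pair. It had 28.4 and 3.33 CPM in the WT-labelled pair, from 308 and 31 counts, and 53.9 and 81.3 CPM in the Rif1_KO-labelled pair, from 716 and 1535 counts. Both libraries labelled Rif1_KO lay above both labelled WT, and WT replicate 2 was lowest by a factor of 8.52 from its own replicate. The log2 fold change was 2.09 (SE 1.05), with an edgeR adjusted p of 0.644. Without WT replicate 1 it was 4.34 (edgeR adjusted p = 0.00207), and without WT replicate 2 it was 1.25. The fit without WT replicate 1 has replicates in the Rif1_KO-labelled pair alone, in which Fos differed by 1.51-fold. Fosb (ENSMUSG00000003545.3, chromosome 7, 19302696 to 19310051), the closest relative of Fos and known for its persistent splice form in neurons, was scarce throughout. It had 0.921 and 1.61 CPM against 2.86 and 4.77 CPM, from 10 and 15 counts against 38 and 90 counts. These groups did not overlap, and the log2 fold change was 1.59 (SE 1.17, edgeR adjusted p = 0.769).

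Fosl2 (ENSMUSG00000029135.10, chromosome 5, 32135801 to 32157842), which encodes Fra-2, a Fos protein without the strong activation domain of Fos, followed another order. It had 2.76 and 38.2 CPM in the WT-labelled pair and 1.21 and 6.14 CPM in the Rif1_KO-labelled pair. WT replicate 2 stood alone at the top, 13.8-fold above WT replicate 1, and the labels overlapped. Its log2 fold change of -2.47 (SE 1.69, edgeR adjusted p = 0.749) became 0.41 without WT replicate 2. Fos and Fosl2 thus had opposite extremes in the same library. Per kilobase of exon, the scale on which genes can be compared, Fos was 96.5%, 97.5% and 96.1% of the family in WT replicate 1 and Rif1_KO replicates 1 and 2, but 25.2% in WT replicate 2. There Fosl2 made up 70.2% of the family, against 0.529% to 2.28% elsewhere.

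In the Jun family, Jun (ENSMUSG00000052684.4, chromosome 4, 95049034 to 95052222), the main partner of Fos in AP-1 and the substrate that gave JNK its name, was lower in the Rif1_KO-labelled pair. It had 40.8 and 59.9 CPM in the WT-labelled pair and 12.4 and 24.8 CPM in the Rif1_KO-labelled pair, from 443 and 557 against 164 and 468 counts. The groups did not overlap under any of the 4 scalings compared (TMM, deposited totals, totals without haemoglobin, rRNA-region and mitochondrial genes, and DESeq2 size factors). The log2 fold change was -1.44 (SE 0.80), which missed the edgeR threshold (adjusted p = 0.683) and ranged from -2.01 to -0.94 with 1 library left out. Junb (ENSMUSG00000052837.6, chromosome 8, 84974484 to 84978718), a weaker activator that can oppose Jun, had 18.5 and 10.5 CPM against 9.42 and 20.2 CPM. Jund (ENSMUSG00000071076.6, chromosome 8, 70698949 to 70700616), the family member that most cells express without a stimulus, had 14.7 and 12.04 CPM against 10.2 and 18.3 CPM. Both overlapped fully, with log2 fold changes of 0.03 (SE 1.16) and 0.09 (SE 1.15), and edgeR adjusted p of 0.997 and 0.994. The sign of the Junb value turned with DESeq2 size factors, and that of either gene turned with some libraries left out, so no direction is given. Jun made up 43.1% and 61.4% of the family per kilobase in the WT-labelled pair and 27.5% and 28.2% in the Rif1_KO-labelled pair.

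Reads of other genes can enter these 3 rows, since the authors counted fragments for every gene they overlap and set no strand option. Jun shares 232 exon bases, 7.28% of its model, with the antisense gene Junos, which had 100 and 100 counts in the WT-labelled pair and 9 and 17 in the Rif1_KO-labelled pair. Junb shares 173 bases, 7.52% of its model, with Prdx2 on the opposite strand, an abundant antioxidant gene of red cells. Prdx2 had 8926 to 12061 counts per library against 98 to 382 for Junb. By CPM it was higher in the WT-labelled pair, at 1065.7 and 1296.5 CPM against 673 and 629 CPM. Jund shares 877 bases, 52.6% of its model, with Gm11175 on the opposite strand, which had 8 to 103 counts. The part of these overlaps in the Jun family values, and in the separation of Jun by label under each scaling, was not tested. No other member shares exon bases with another gene of the table. The table's Jund model starts at 70698949, while the RefSeq start site is at 70697739.

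The balance between the families separated the labels, and it is a ratio within a library, so scaling does not affect it. Reads of the overlapping genes named above can enter the Jun family sums, and their part in the balance was not tested. The summed Fos family averaged 9.06 ± 4.87 CPM per kilobase in the WT-labelled pair and 29.7 ± 8.80 in the Rif1_KO-labelled pair (SD, n = 2 each). The summed Jun family averaged 30.1 ± 0.629 and 20.8 ± 9.50 CPM per kilobase. Fos family transcripts were therefore 0.421 and 0.184 times the Jun family in the WT-labelled pair, and 1.67 and 1.30 times in the Rif1_KO-labelled pair. The ratio of Fos alone to Jun alone was 0.943 and 0.0755 against 5.92 and 4.45, in the same order. Both ratios had to separate the labels, since by CPM each numerator was higher and each denominator lower in both libraries labelled Rif1_KO. Their separation thus adds nothing to those levels. The smallest p that 2 libraries against 2 allow in a two-sided exact permutation test is 0.333, so neither ratio was tested, and both were chosen after the values had been seen.

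**Figure D2:**
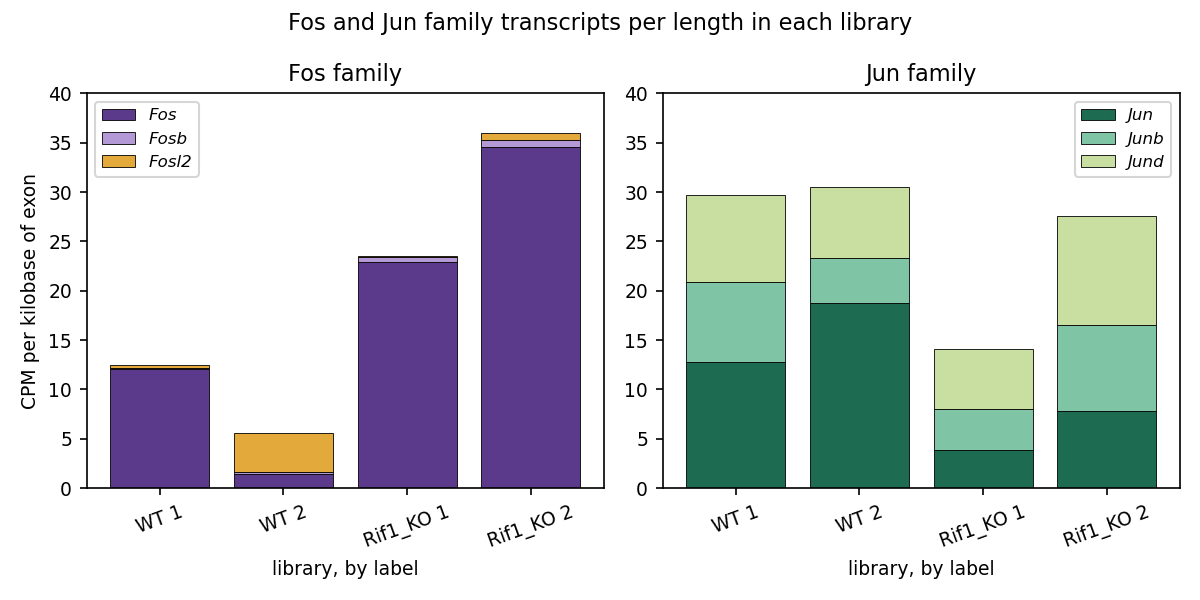
Stacked bars of Fos family (left) and Jun family (right) transcripts in CPM per kilobase of exon, with 1 bar per library and 1 colour per gene. The Fos family bar exceeds the Jun family bar in both libraries labelled Rif1_KO and falls short of it in both labelled WT, and Fosl2 fills most of the Fos family bar in WT replicate 2.

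The promoters of 3 members are shown: Fos and Jun, the partners in the ratio above, and Dusp1, the member that passed an unadjusted p under 0.05. RefSeq start sites on GRCm38.p6 (mm10) were found for 8 of the 10 genes, not for Egr1 and Ier2. The printed bases run 5′ to 3′ on the gene's strand and stop just before the table's gene model, and capitals mark the motif matches listed after them. They are shown from 250 bases before the start site, to the last base before it for Fos and Jun and to -48 for Dusp1, whose model begins upstream of the RefSeq start. The stretches are chr12:85473640-85473889 (plus strand), chr4:95052223-95052472 (minus strand) and chr17:26508520-26508722 (minus strand).
Fos: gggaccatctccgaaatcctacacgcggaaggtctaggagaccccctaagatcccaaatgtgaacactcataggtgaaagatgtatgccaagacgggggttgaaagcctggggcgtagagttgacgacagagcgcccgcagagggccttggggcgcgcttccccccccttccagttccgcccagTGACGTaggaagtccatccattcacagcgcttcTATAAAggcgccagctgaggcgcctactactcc
Jun: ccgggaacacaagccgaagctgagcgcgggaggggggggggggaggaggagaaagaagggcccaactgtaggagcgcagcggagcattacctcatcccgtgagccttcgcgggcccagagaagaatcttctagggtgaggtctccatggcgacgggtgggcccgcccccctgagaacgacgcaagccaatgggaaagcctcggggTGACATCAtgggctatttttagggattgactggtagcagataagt
Dusp1: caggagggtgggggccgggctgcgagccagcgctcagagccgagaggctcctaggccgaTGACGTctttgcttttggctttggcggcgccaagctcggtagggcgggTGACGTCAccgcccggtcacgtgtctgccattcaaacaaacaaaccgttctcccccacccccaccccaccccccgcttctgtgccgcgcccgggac

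In the Fos promoter the capitals are TGACGT, the core of a cyclic AMP response element, at -66 to -61 from the start site, and a TATA box, TATAAA, at -33 to -28. In the Jun promoter they are TGACATCA, an AP-1-like element, at -45 to -38. Dusp1 holds a full cyclic AMP response element, TGACGTCA, at -143 to -136 and a core at -191 to -186. Both strands of the whole window, from 250 bases before to 50 after each RefSeq start, were searched in 32851 promoters. The full element was found in 1.79% of them and in 1 of the 8 member promoters, and the core, which the full element contains, in 7.51% and in 3 of 8 (Fos, Atf3 and Dusp1). TGACATCA was in 3.62% and in 1 of 8, and TATAAA in 13.6% and in 2 of 8. The EGR motif GCGGGGGCG was in 2.91% and in 2 of 8 (Fosb and Fosl2), and GCGTGGGCG in 0.612% and 0 of 8. The CArG box bound by SRF was in 1.63% and 0 of 8, and the AP-1 motif TGACTCA in 5.20% and 0 of 8. A match describes the letters of this window and is not evidence of binding, and no match says only that the letters are not in it.

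Outside AP-1 proper, Egr1 (ENSMUSG00000038418.7, chromosome 18, 34859823 to 34864984) had a mean in the Rif1_KO-labelled pair 6.998 times that in the WT-labelled pair. It had 0.645 and 9.57 CPM in the WT-labelled pair, from 7 and 89 counts, and 36.2 and 35.2 CPM in the Rif1_KO-labelled pair, from 481 and 665 counts. The libraries labelled Rif1_KO were nearly equal and above both labelled WT, which differed from each other by 14.8-fold. The log2 fold change was 2.81 (SE 1.43, edgeR adjusted p = 0.649). It was 5.77 without WT replicate 2 (edgeR adjusted p = 0.00377) and 1.90 without WT replicate 1. WT replicate 1 had the lowest Egr1 but 8.52 times as much Fos as WT replicate 2, so this pair of genes, which the same kinases are known to induce, was not ordered alike between the libraries labelled WT.

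Atf3 (ENSMUSG00000026628.13, chromosome 1, 191170296 to 191218039) was nearly absent from WT replicate 2. It had 17.9 and 0.107 CPM in the WT-labelled pair, from 194 counts and 1 count, and 24.2 and 9.64 CPM in the Rif1_KO-labelled pair, from 321 and 182 counts. The ratio of WT replicate 1 to WT replicate 2 was 166 (exact 95% interval 29.5 to 6601, counting error only). WT replicate 1 lay between the libraries labelled Rif1_KO, so the labels overlapped. The log2 fold change of 0.91 (SE 1.88, edgeR adjusted p = 0.941) rested on WT replicate 2: it was -0.08 without that library, and 7.18 without WT replicate 1 (edgeR adjusted p = 0.0169). With all 4 libraries it was 3.06 by limma-voom (adjusted p = 0.698).

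Dusp1 (ENSMUSG00000024190.6, chromosome 17, 26505590 to 26508519), the feedback phosphatase, was the most abundant of the 10 in each library labelled WT. It had 87.2 and 231 CPM in the WT-labelled pair, from 947 and 2145 counts, and 28.03 and 57.4 CPM in the Rif1_KO-labelled pair, from 372 and 1084 counts. Both libraries labelled Rif1_KO were below both labelled WT by CPM. The group means were 159 ± 101 and 42.7 ± 20.8 CPM (SD, n = 2 each), a log2 fold change of -1.89 (SE 0.64, unadjusted p = 0.0217 by edgeR's quasi-likelihood test, adjusted p = 0.571). It was -2.43 without WT replicate 1 (edgeR adjusted p = 0.00504) and -1.03 without WT replicate 2. Ier2 (ENSMUSG00000053560.4, chromosome 8, 84661331 to 84662852) had the steadiest replicates in the WT-labelled pair. It had 26.7 and 23.8 CPM against 12.51 and 16.2 CPM, with a log2 fold change of -0.82 (SE 0.99, edgeR adjusted p = 0.869).

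**Figure D3:**
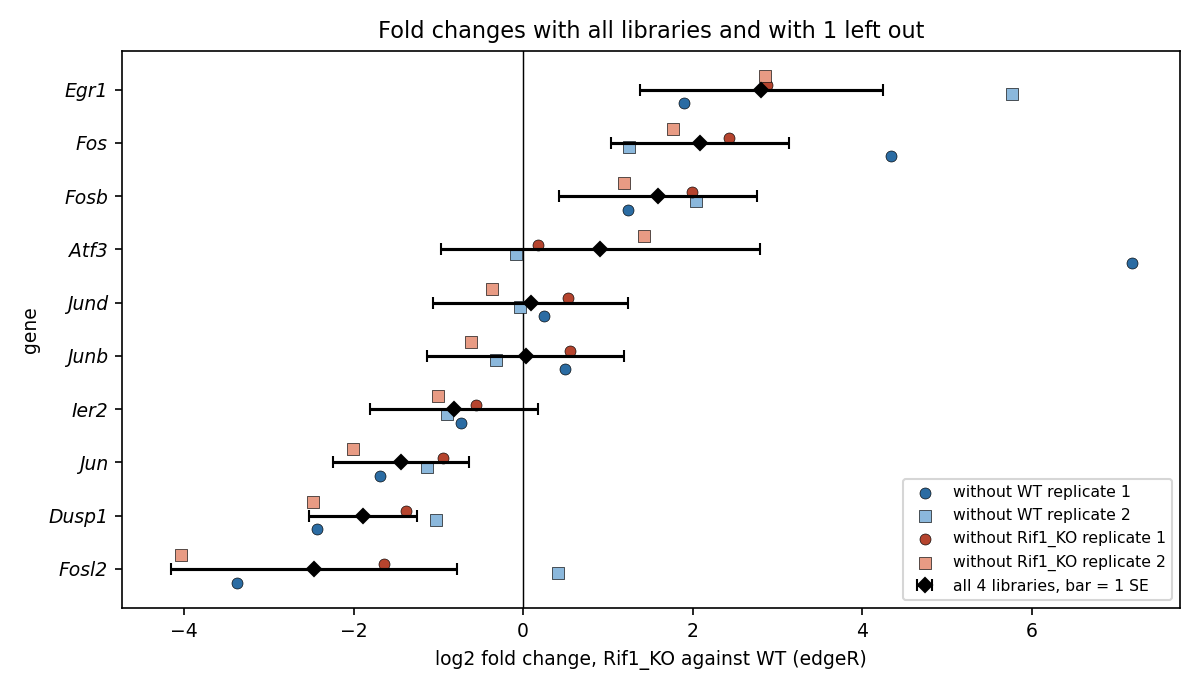
log2 fold change of each gene for Rif1_KO against WT by edgeR, with all 4 libraries (diamond, bar of 1 SE) and with each library left out in turn (coloured points). Jun, Ier2 and Dusp1 stay below 0 and Fos, Fosb and Egr1 above 0 in each of the 4 fits, while Fosl2, Atf3, Junb and Jund cross 0.

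With 1 library left out, 3 of the 10 genes were called without WT replicate 1 (Fos, Atf3 and Dusp1), where 5.63% of all tested genes were called, and 1 without WT replicate 2 (Egr1), where 3.52% were. A label left with 1 library is assumed there to have the spread of the other label. With Rif1_KO replicate 1 or 2 left out, 0 of the 10 were called.

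Replicates of a label also differed in these genes. Between the libraries labelled WT, 5 of the 10 genes differed by more than 2-fold, with a median absolute log2 ratio of 1.11. Egr1 and Atf3, with 7 counts and 1 count in a library, are among these 5. Of the 8 genes with at least 10 counts in both libraries, 3 differed by more than 2-fold (Fos, Fosl2 and Dusp1) and the median was 0.811. Among 10599 tested genes with that many counts in both, 46.7% differed by more than 2-fold and the median was 0.906. Between the libraries labelled Rif1_KO, all 10 genes had 10 counts or more, and 5 of them differed by more than 2-fold with a median of 0.921, against 35.8% and 0.707 over 13183 genes. That count depended on the scale. It was 4 with DESeq2 size factors and 6 on deposited totals, where 35.8% and 36.7% of the 13183 genes differed by more than 2-fold. By library, 4 of the 10 genes were highest in Rif1_KO replicate 2 (Fos, Fosb, Junb and Jund), 3 in WT replicate 2 (Fosl2, Jun and Dusp1), 2 in Rif1_KO replicate 1 (Egr1 and Atf3) and 1 in WT replicate 1 (Ier2). Rif1_KO replicate 1 was the lowest library for 6 of the 10.

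Per kilobase, the order of the genes differed between libraries, within a label as well as between labels. Fos ranked 4 and 8 of the 10 in the WT-labelled pair and 1 and 1 in the Rif1_KO-labelled pair, and Atf3 ranked 6 and 10 against 2 and 8. Under the label WT the highest means were 58.9 ± 37.6 for Dusp1, 16.6 ± 1.38 for Ier2 and 15.8 ± 4.23 for Jun (CPM per kilobase, SD, n = 2), and Ier2 and Jun did not differ beyond their spread. Jund at 8.03, Fos at 6.74, Junb at 6.31 and Atf3 at 4.17 followed, within the spread of Fos and Atf3, ahead of Fosl2, Egr1 and Fosb. Under the label Rif1_KO the highest were 28.8 ± 8.22 for Fos and 15.8 ± 7.70 for Dusp1, by the means; in Rif1_KO replicate 1 Atf3, at 11.2, was above Dusp1, at 10.4. Ier2, Jund, Egr1, Atf3, Junb and Jun then lay between 9.42 and 5.82 CPM per kilobase and could not be ordered beyond their spread, and Fosb and Fosl2 were lowest at 0.611 and 0.380. Among tested genes in the same library, Fos stood at percentiles 76.9 and 46.6 per kilobase in the WT-labelled pair and at percentiles 87.2 and 91.0 in the Rif1_KO-labelled pair.

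The mean profile of the 10 genes stood at -0.20 and -0.18 in the WT-labelled pair and -0.11 and 0.50 in the Rif1_KO-labelled pair (centred log2 CPM with 0.5 added). The genes nearest to it over the 4 libraries, by root mean square log2 distance, were Ldhb (0.0379), Fnta (0.0511), Igfbp5 (0.0529), Tusc3 (0.0603) and Pcdhgb2 (0.0654). The closest of the 10 genes themselves was Jund (0.212) and the farthest Atf3 (2.09). Of 7844 genes compared, 121 lay nearer to the mean profile than Jund.

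Of 48 other immediate early genes listed, 44 were tested and 0 were called by edgeR or DESeq2. Of all tested genes, edgeR called 0.0129% and DESeq2 3.37%. Before adjustment (edgeR p under 0.05), 2 of the 44 were higher and 2 lower in the Rif1_KO-labelled pair. At that p 5.35% of all tested genes were higher and 3.05% lower. Without overlap 11 of the 44 were higher and 7 lower, shares near the 21.0% and 18.4% of all tested genes, and the median log2 fold change was -0.32. Klf2, an endothelial Krüppel-like factor, had 0.461 and 0.537 CPM against 3.31 and 9.69 CPM. Mcl1, a short-lived survival factor of the Bcl2 family, had 7.28 and 21.3 CPM against 62.0 and 59.8 CPM. Ppp1r15a, which encodes the stress-induced eIF2 alpha phosphatase subunit GADD34, had 23.1 and 188 CPM against 7.16 and 24.8 CPM. Klf2 and Mcl1 did not overlap by label, while Ppp1r15a was high in WT replicate 2 as Dusp1 and Fosl2 were. The edgeR adjusted p was 0.577 for Klf2 and Mcl1 and 0.584 for Ppp1r15a.

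Of 13 other AP-1 and related bZIP genes, 9 were tested and DESeq2 called 0. With edgeR 0 were called or passed an unadjusted p under 0.05, which 8.41% of all tested genes passed. The median log2 fold change was 0.34. Atf7, a CREB-like partner of Jun, had 34.4 and 8.60 CPM against 2.34 and 4.24 CPM. The small Maf gene Mafg had 1.57 and 1.29 CPM against 7.01 and 5.72 CPM, and Maf had 51.8 and 38.7 CPM against 88.7 and 69.9 CPM. All 3, named for the smallest p on the list, were without overlap, with edgeR adjusted p of 0.649, 0.701 and 0.740. Of the 9 tested, 3 were higher and 1 lower without overlap and 5 overlapped, where 39.4% of all tested genes did not overlap. Of 10 other MAP kinase phosphatases 8 were tested and 0 called, with 1 higher and 0 lower before adjustment (p under 0.05) and a median of 1.00. At that edgeR p 5.35% of all tested genes were higher and 3.05% lower. Dusp2, a nuclear phosphatase induced like Dusp1, had 0.368 and 0 CPM against 6.33 and 2.44 CPM, from 4 and 0 against 84 and 46 counts, the reverse of the order of Dusp1. Dusp5, specific for ERK, had 0.184 and 0.322 CPM against 1.36 and 1.01 CPM, and Dusp10, which acts on JNK and p38, had 27.2 CPM in WT replicate 2 against 0.151 to 1.22 CPM elsewhere. Their edgeR adjusted p ranged from 0.577 to 0.655, and DESeq2 called 0 of the list.

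Among 32 upstream kinases, SRF cofactors and CREB factors, 30 were tested, 0 were called by edgeR, and 3 were higher and 0 lower before adjustment (p under 0.05), where 5.35% of all tested genes were higher and 3.05% lower; the median was -0.03. The 3 genes are Mapk8, Mapk9 and Map2k6. Mapk8, for JNK1, had 1.20 and 1.07 CPM in the WT-labelled pair against 38.96 and 21.7 CPM in the Rif1_KO-labelled pair. Mapk9, for JNK2, had 3.50 and 1.29 CPM against 47.2 and 32.1 CPM. Map2k6, for a kinase that activates p38, had 0.276 and 0.645 CPM against 12.8 and 16.8 CPM, from 3 and 6 against 170 and 317 counts. Their log2 fold changes were 4.73 (SE 1.29), 4.04 (SE 1.17) and 4.98 (SE 1.54), and each had an edgeR adjusted p of 0.571. DESeq2 called these 3 of the 30, with adjusted p of 0.000486, 0.00495 and 0.00217, and it called 3.37% of all tested genes.

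Heat shock proteins, another class of genes known to respond to dissociation, also lay on both sides. All 14 were tested, 0 were called by edgeR or DESeq2, and 1 was lower and 0 higher at an unadjusted p under 0.05, with a median of -0.06. Of all tested genes, edgeR called 0.0129% and DESeq2 3.37%, and 3.05% were lower and 5.35% higher at that unadjusted edgeR p. Hspd1, the mitochondrial chaperonin, had 202 and 277 CPM against 132 and 134 CPM (edgeR adjusted p = 0.585). Bag3 and Hsph1, both co-chaperones of Hsp70, had 0.737 and 3.44 CPM against 17.9 and 11.5 CPM, and 5.71 and 21.4 CPM against 38.3 and 49.7 CPM. Their edgeR adjusted p was 0.656 and 0.697. Without overlap 4 of the 14 were higher and 2 lower, and 8 overlapped, where 21.0% of all tested genes were higher and 18.4% lower. Of 12 known AP-1 targets 9 were tested, 0 were called by edgeR or DESeq2, and 1 was lower and 0 higher at an unadjusted p under 0.05. The matrix protease gene Mmp9 had 9.12 and 1.29 CPM against 0.527 and 0.159 CPM, the haem oxygenase gene Hmox1 27.9 and 45.2 CPM against 5.12 and 11.2 CPM, and the protease inhibitor gene Timp1 18.1 and 26.4 CPM against 45.7 and 52.4 CPM. These 3 targets were named for the smallest p on the list. Mmp9 and Hmox1 were lower and Timp1 higher without overlap. Of the 9 tested, 3 were higher and 2 lower without overlap and 4 overlapped, where 39.4% of all tested genes did not overlap.

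**Figure D4:**
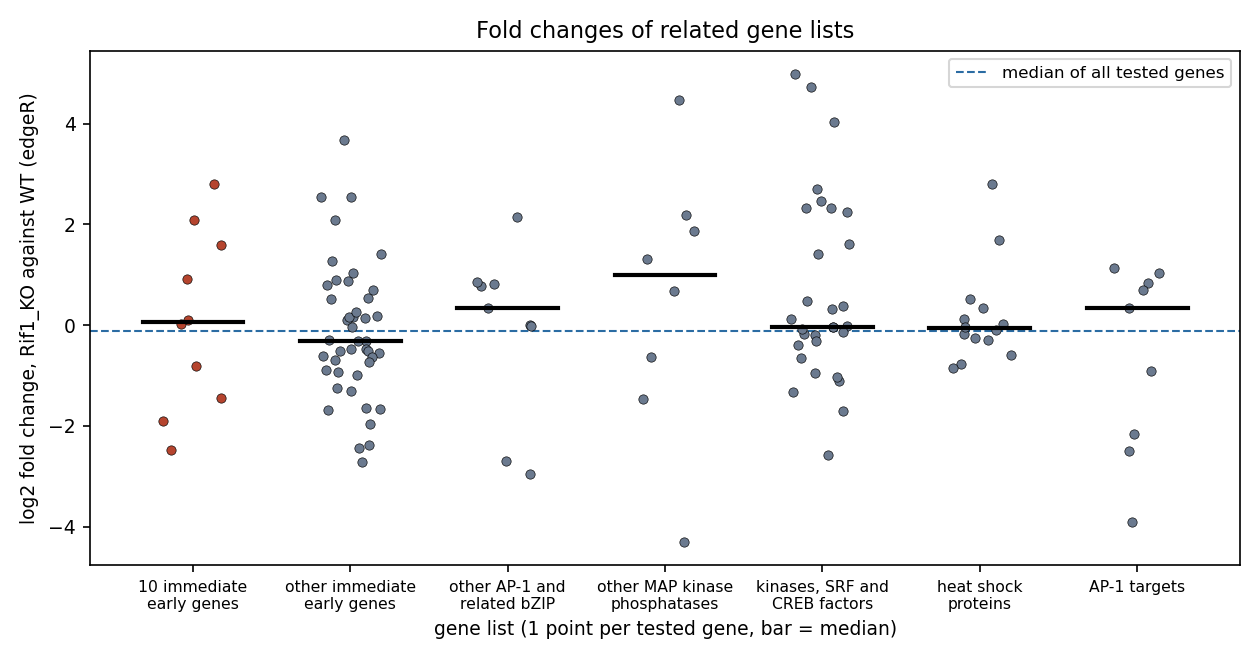
log2 fold change by edgeR for Rif1_KO against WT, with 1 point per tested gene and a bar at the median of each list; the dashed line is the median of all tested genes, -0.11. Each list spreads to both sides of 0, with medians from -0.32 for other immediate early genes to 1.00 for other MAP kinase phosphatases.

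The make-up of the libraries differed by label beside these values. Ribosomal RNA regions took 15.8% and 17.6% of counts in the WT-labelled pair and 3.87% and 7.15% in the other, and haemoglobin genes 11.8% and 8.92% against 1.085% and 0.555%. Mitochondrial genes took 14.2% and 20.1% against 21.0% and 14.4%, which overlapped. Marker sums separated the labels for some other cell types and overlapped for others. Summed over 10 stromal markers, the level was 846 and 692 CPM in the WT-labelled pair and 2141 and 1711 CPM in the Rif1_KO-labelled pair, where Fos, Fosb and Egr1 were also higher; 8 and 9 of the markers had at least 10 counts in the WT-labelled pair and 10 and 10 in the Rif1_KO-labelled pair. Summed over 12 erythroid markers it was 138698 and 113029 CPM against 9887 and 4269 CPM. From 11 to 12 of the 12 had 10 counts or more. The level was thus higher in the WT-labelled pair, where Jun, Ier2 and Dusp1 were also higher by CPM. Over 12 leukocyte markers it was 82.9 and 69.3 CPM against 8.06 and 4.08 CPM, with 1 to 4 of 12 at 10 counts or more; Epx, an eosinophil peroxidase gene, gave 78.9 and 48.4 of these CPM against 0.452 and 0.159. Over 10 endothelial markers it was 385 and 172 CPM against 86.5 and 191 CPM, which overlapped, with 9 to 10 of 10 at that count. Over 10 mesonephric and epithelial markers it was 211 and 261 CPM against 68.8 and 161 CPM, with 6 to 7 of 10. Supporting cell markers did not separate the labels, at 756 and 841 CPM against 893 and 757 CPM, with 8 to 9 of 10 at 10 counts or more. None of these lists had a marker at 0 in all 4 libraries. All 10 housekeeping genes listed were tested, with 0 called by edgeR, 0 at an unadjusted p under 0.05 and a median log2 fold change of -0.17. Without overlap 1 was higher and 3 lower, where 21.0% and 18.4% of all tested genes were. Single housekeeping genes still differed between libraries. Tbp had 46.8 and 216 CPM against 58.4 and 56.2 CPM, and Actb 21677 and 20815 CPM against 38867 and 19886 CPM. The germ cell sum was highest in WT replicate 2, the library with the most Fosl2, Jun and Dusp1 and the least Fos and Atf3. Of all tested genes, 39.4% did not overlap by label, so a shared side is common. The part of cell make-up and of these shares in the values of the 10 genes, and in their dependence on the scale, was not tested.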

How the data were processed

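RNA-seq counts of 4 libraries were used, 2 labelled WT and 2 labelled Rif1_KO, with groups and replicate numbers from the titles. The authors deposited whole-number counts per gene: HISAT2, featureCounts, SAMtools, FastQC and Trim Galore stand in the submitters' processing notes, with mm10, and per the file headers featureCounts 1.6.2 counted read pairs on GENCODE M17 at a mapping quality of at least 30, for every gene overlapped and without strand. The exon length in bases came with the deposited table. Symbols were looked up by Ensembl identifier, and 95 identifiers had none.

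Genes were filtered with filterByExpr (minimum count 10) and tested with edgeR 4.0.16 in R 4.3.3 (quasi-likelihood, robust, TMM factors of 0.856, 0.8, 1.11 and 1.32, Benjamini-Hochberg over 15466 genes, threshold 0.05). SE is the log2 fold change over the square root of F. Alternatives were DESeq2 1.42.0, limma-voom (limma 3.58.1), other scalings and filters, a replicate block, and leaving out each library. The steps were also run on simulated counts with the same dispersion for every gene, and no result here rests on that run. Named genes are the 10 members, Rif1, the 5 genes nearest to the members' mean profile (mean of at least 10 CPM), and, of each other list, up to 3 with the smallest p. Marker and housekeeping lists are given by their sums or counts. From these, Dazl, Dppa3 and Prdm14 are named for germ cells, Epx for leukocytes, and Tbp and Actb for housekeeping. The members and lists were chosen with earlier results of these data known.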

Additional observations from a re-analysis of the deposited data

How the results depend on the processing

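The count of called genes among all tested was 2 by edgeR, and it was 0 with upper-quartile factors, with TMM after removing haemoglobin, rRNA-region and mitochondrial genes, and with the stricter filter (50 counts in 2 libraries), 54 without a filter and 521 with DESeq2. With 1 library left out it ranged from 5 to 871, the number of called members from 0 to 3 and that of called genes on the other pathway lists from 0 to 6; DESeq2 called 3 of the latter. With all 4 libraries, 0 of the 10 members were called in any of the 8 other settings, where 76 of 79 fold changes kept their direction. The 3 that turned were those of Junb, at -0.06 with RLE factors, -0.06 with DESeq2 and -0.02 with the replicate block. Sizes moved by over 1.5-fold on the linear scale with limma-voom and with the block for Atf3 (3.06 and 3.01, from 0.91), Egr1 (3.75 and 3.77, from 2.81) and Fos (2.73 and 2.74, from 2.09), and with limma-voom for Fosl2 (-1.84, from -2.47). With 1 library left out, fold changes ranged from -4.04 to 0.41 for Fosl2, -0.61 to 0.55 for Junb, -0.37 to 0.53 for Jund and -0.08 to 7.18 for Atf3; the cause was not tested. The log2 ratio of the summed member levels, Rif1_KO over WT, was -0.43 by CPM and 0.15 on deposited totals. The median log2 fold change of all genes moved from -0.11 to 0.16 with upper-quartile factors. Over all alternatives the list medians ranged from -0.08 to 0.92 for other AP-1 genes, -0.45 to 0.33 for other immediate early genes, 0.35 to 1.58 for phosphatases, -0.11 to 0.90 for kinases and factors, -0.25 to 0.24 for heat shock genes and -0.75 to 0.67 for AP-1 targets, and members at an unadjusted p under 0.05 numbered 0 to 6. Same-numbered libraries shared only a number (correlation of their deviations -0.0252 over 15466 genes), and the replicate block called 7 genes. Low counts limit the values of Atf3, Egr1 and Fosb most among the 10 genes. These had 1, 7 and 10 counts in 1 library labelled WT each, and the cause was not tested.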
